A study of Mus musculus with 9 samples.

Results

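The genes described here are 34 mouse genes of sterol synthesis, sterol regulated transcription, cholesterol transport and storage, cholesterol efflux and lipoprotein receptor turnover, and fatty acid synthesis. They were taken by gene symbol from the 23282 gene rows measured in each library, every one of them had exactly 1 row, and all 34 passed the filter on low values in each comparison. By role, 18 are enzymes that build cholesterol from acetyl-CoA, 5 are the sterol responsive transcription factors and their regulators, 2 handle transport and storage, 6 belong to the liver X receptor branch (receptors, efflux transporters, an apolipoprotein and a ligase that degrades lipoprotein receptors), and 3 synthesize fatty acids.

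RAW264.7, a macrophage-like line of BALB/c mouse origin that becomes osteoclast-like under the cytokine RANKL, was kept for 4 days in 3 conditions with 3 libraries each. The negative control (NC) received RANKL alone at 50 ng/mL. The second group (SF) received RANKL together with surface proteins extracted from the dairy bacterium Propionibacterium freudenreichii MJ2 at 10 μg/mL. The third (MJ) received heat-killed MJ2 cells at 10000000 cells/mL, and whether each of its cultures also had RANKL is not spelled out in the labels. All libraries came from passage 30 of the line, no untreated culture was analysed here, and nothing in the labels says that replicates were separate cultures, so p-values may measure technical spread only.

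Cells obtain cholesterol by making it from acetyl-CoA through mevalonate, squalene and lanosterol, or by taking up lipoproteins. When sterol in the endoplasmic reticulum is low, Scap escorts the SREBP transcription factors (from Srebf1 and Srebf2) to the Golgi for cleavage, and the freed factors switch on the synthesis enzymes. When sterol is ample, Insig proteins hold Scap back. Excess sterol yields oxysterols that activate the liver X receptors (Nr1h2 and Nr1h3), which induce the efflux transporters Abca1 and Abcg1, apolipoprotein E and the ligase Mylip. Macrophages store surplus cholesterol as esters made by Soat1, and osteoclasts are known to depend on membrane cholesterol for fusion and survival.

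Values are the deposited log2(adjusted reads + 1), where adjusted reads are read numbers that the authors had scaled between libraries, and the 9 libraries held between 5930926 and 6503682 of them. All 8 macrophage markers examined were detected in every group, and their summed level was 15719 to 17431 adjusted reads in NC, 22974 to 23689 in MJ and 18803 to 20334 in SF. Single markers moved more than this sum. In SF against NC 5 were called higher (Adgre1 3.81, Fcgr3 3.24, Itgam 3.01, Lyz2 2.48 and Cd14 2.37, as log2 fold changes) and Csf1r lower (-1.47). There, 10.2% of all genes tested were called higher and 7.32% lower. In MJ against NC 4 were called higher and none lower, where 3.37% and 0.897% of all genes were. The 8 osteoclast markers summed to 17073 to 28379 in NC, 12052 to 14038 in MJ and 4958 to 7349 in SF, so the groups did not overlap in this measure. Singly, 7 of them were tested (not Calcr), beside the same shares of all genes. In SF against NC 5 were called lower and none higher. In MJ against NC 2 were called lower and none higher, and Mmp9 was the only one above 0 (0.58). The 8 markers of other cell types summed to at most 51.2 in any library, with 4 of them at 0 throughout. The part of this shift in cell state in the results below was not tested, and in bulk RNA fewer cells of a type and less RNA per cell cannot be told apart.

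Many sterol synthesis enzymes were lower in cells given surface proteins. Against RANKL alone, 5 of the 18 fell by at least 2-fold with an adjusted p under 0.05 (Hmgcs1, Idi1, Sqle, Cyp51 and Nsdhl), and none rose by that much, in limma with Benjamini-Hochberg adjustment over all 10874 genes tested. Of the whole list of 34, 8 were lower and 2 higher, where 7.32% of all genes tested were called lower and 10.2% higher. By adjusted p alone, 9 enzymes were lower and 1 higher (all members, 14 lower and 3 higher), against 13.2% and 15.9% of all genes. The median log2 fold change was -0.76 over the 18 enzymes and -0.67 over the 34 members, and -0.01 over all genes tested. In 13 enzymes every SF library lay below every NC library, and in 23 of the 34 members, where 23.7% of all genes showed this. The reverse held for 4 members, where 24.7% of all genes did.

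No single gene can go below p = 0.1 in an exact two-sided permutation test of 3 libraries against 3, so the calls rest on the fit across all genes. Among single libraries left out, the count of lower members moved most without the third NC library, where it was 3 (Nsdhl, Apoe and Scd2). Of the libraries, 3 (NC replicate 2, MJ replicate 1 and SF replicate 3) listed a value above 0 for every row that was not 0 everywhere. Without them 4 members were lower (Hmgcs1, Mvk, Cyp51 and Nsdhl) and 1 higher (Soat1), and Idi1, Sqle, Stard4, Apoe, Scd2 and Abca1 kept their direction with adjusted p from 0.0534 to 0.0918.

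**Figure D1:**
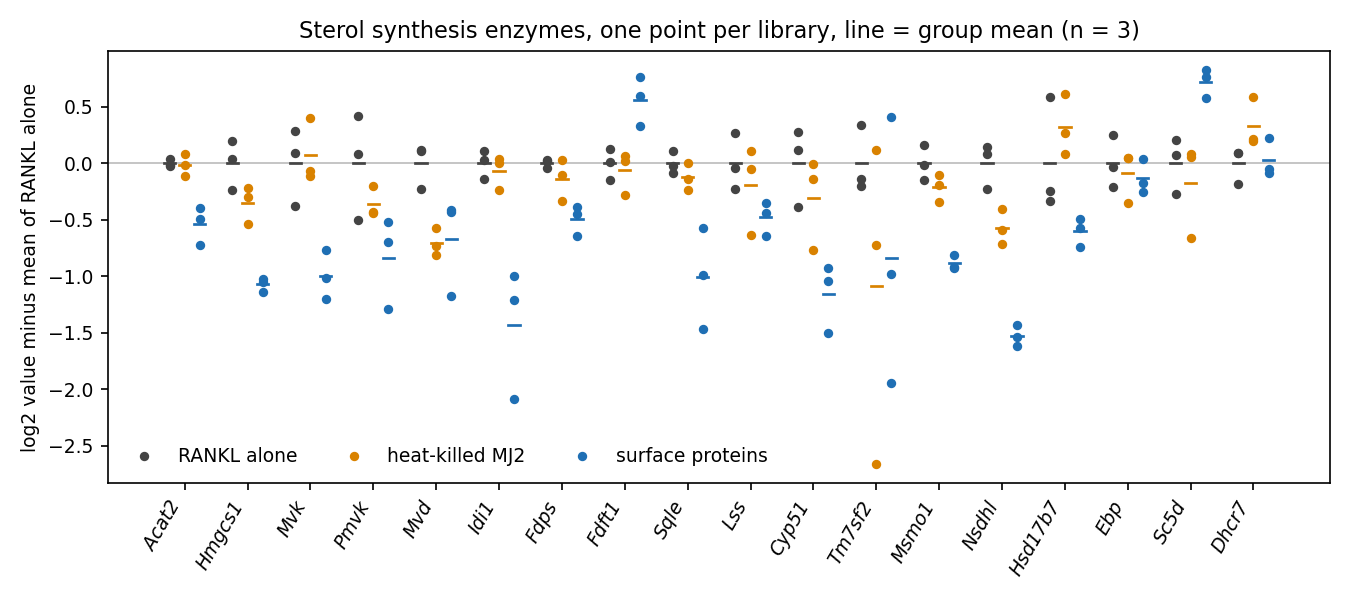
The deposited log2 value of each of the 18 synthesis enzymes (x axis, in pathway order) in each library, minus the mean of the 3 libraries with RANKL alone, in log2 units. Points are libraries and short lines are group means (n = 3). The SF libraries lie below the NC libraries for 13 enzymes, whereas Fdft1 and Sc5d lie above them.

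The first enzymes lead from acetyl-CoA to the isoprenoid building blocks. Hmgcs1 condenses acetoacetyl-CoA and acetyl-CoA and stands at the head of the committed route. Its log2 value was 9.61, 9.34 and 9.78 in NC, 9.36, 9.04 and 9.28 in MJ, and 8.55, 8.53 and 8.43 in SF. The 3 SF libraries were close together and below the other 6. The log2 fold change against NC was -1.07 ± 0.16 (SE, n = 3 per group, adjusted p = 0.00563), a level 47.6% of that with RANKL alone. Without NC replicate 3 it was -0.97, just short of 2-fold.

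Mvk, the kinase that phosphorylates mevalonate, measured 7.18, 6.52 and 6.98 in NC, 6.79, 6.82 and 7.30 in MJ and 5.88, 6.13 and 5.69 in SF. The SF libraries lay below both other groups, which overlapped. The difference from NC, -0.996 ± 0.22 (SE), fell just short of the fold limit with an adjusted p of 0.0206, and passed it without SF replicate 2 (-1.11) or NC replicate 2 (-1.19). Idi1, which isomerizes isopentenyl diphosphate, had log2 values of 7.75, 7.92 and 7.995 in NC, 7.89, 7.65 and 7.93 in MJ and 6.89, 5.80 and 6.67 in SF. All SF libraries were low and the second was the lowest, whereas MJ and NC overlapped. The log2 fold change was -1.43 ± 0.30 (SE, adjusted p = 0.0162), a fall to 37.0% of the control, and without NC replicate 3 it was -1.38 with an adjusted p of 0.0524.

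The remaining early enzymes showed smaller differences. Acat2, the thiolase that supplies acetoacetyl-CoA, and Fdps, which makes farnesyl diphosphate, passed by adjusted p alone with log2 fold changes of -0.54 and -0.49. Acat2 has a close paralog, Acat3 (-0.19, adjusted p = 0.389), with which it may share reads. Pmvk (-0.84, adjusted p = 0.0876) and Mvd (-0.67, adjusted p = 0.0910), the kinase and the decarboxylase that follow Mvk, did not pass.

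Sqle, the squalene epoxidase and a rate-limiting step, measured 8.76, 8.69 and 8.89 in NC, 8.65, 8.55 and 8.78 in MJ and 8.21, 7.79 and 7.32 in SF. Its SF values spread widely but stayed below the other libraries. The log2 fold change of -1.01 ± 0.24 (SE, adjusted p = 0.0256) sat on the fold limit. Leaving out any 1 of the libraries except SF replicate 1 ended the call, with values from -0.78 without SF replicate 3 to -1.05 without NC replicate 2. With the replicate number as a block the limma adjusted p was 0.0545. Cyp51, the lanosterol demethylase, measured 9.38, 8.88 and 9.54 in NC, 9.13, 8.49 and 9.26 in MJ and 8.34, 7.77 and 8.22 in SF. Only the SF group stood apart. The difference was -1.16 ± 0.24 (SE, adjusted p = 0.0170), and the call was lost without SF replicate 2 (-0.99), NC replicate 1 (-1.10) or NC replicate 3 (-1.02).

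Nsdhl, a dehydrogenase of the sterol C4 demethylation complex, had the smallest adjusted p of the 34 members. Its log2 values were 8.17, 8.54 and 8.49 in NC, 7.998, 7.69 and 7.81 in MJ and 6.97, 6.79 and 6.86 in SF. The groups formed 3 separate steps, with MJ between the others. The log2 fold change of SF against NC was -1.53 ± 0.16 (SE, adjusted p = 0.00186), a level 34.7% of the control, and it passed both thresholds in all 17 alternatives that kept these thresholds, left-out libraries included. Msmo1, the oxidase of the same complex, fell by 0.88 on the log2 scale (adjusted p = 0.00766), under the fold limit, and Hsd17b7, its ketoreductase, was at -0.60 (adjusted p = 0.143).

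Some enzymes did not follow. Sc5d, the lathosterol desaturase, rose by adjusted p alone (log2 fold change 0.72 ± 0.18 SE, adjusted p = 0.0267). Fdft1, the squalene synthase, was at 0.56 (adjusted p = 0.0506), but its 3′ end shares 774 exon bases with Ctsb on the opposite strand (GENCODE M21, GRCm38, chr14:63145150-63145923), Ctsb rose by 1.19 ± 0.24 (SE, adjusted p = 0.0151), and whether the counting used strand is not stated, so the reads of the pair cannot be told apart. Ebp and Dhcr7, a sterol isomerase and the last reductase, were at -0.13 and 0.03, with 95% intervals of -0.56 to 0.30 and -0.36 to 0.42. Lss was at -0.48 (adjusted p = 0.0962). Tm7sf2, a sterol reductase, was the member with the lowest reads, down to 3.10 in MJ replicate 1, and its interval of -2.23 to 0.55 allows either direction. The 3′ end of Cyp51 also lies in 166 exon bases shared with Akap9 on the opposite strand, so reads of that pair cannot be told apart either. Akap9 was at 0.03 (adjusted p = 0.891). Fdps shares 1124 exon bases with Gm43738 and Tm7sf2 532 with Vps51, each on the same strand, and how shared reads were assigned is not stated.

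Promoter sequences were examined because many of these enzymes moved together. RefSeq windows (GRCm38.p6) from 250 bases before to 50 after each annotated start were matched for 27 of the 34 members. The sterol regulatory element TCACNCCAC, to which SREBP binds, was searched on both strands with the CCAAT box bound by its partner NF-Y and with 2 copies of AGGTCA 4 bases apart, the liver X receptor pattern. An exact match to the sterol element was found in Hmgcs1 alone among the 27, and in 1.44% of all 27025 genes with a window. A CCAAT box was present in 21 of the 27 members (77.8%) and in 14 of the 15 synthesis enzymes with a window (93.3%), against 41.1% of all genes. That last share covers every gene with a window, detected in these cells or not, whereas all members passed the filter on low values. The AGGTCA pair was in none of the members and in 4 genes overall. Only exact matches inside these windows were sought, so sites with other letters or farther from the start would be missed. The search therefore cannot show that a member lacks a site for either factor. The 4 stretches that follow are 5′ to 3′ on the strand of the gene, lie outside all annotated exons, and carry the matches in capitals (CCAAT on either strand, so ATTGG on the other, and the sterol element in Hmgcs1). Hmgcs1 is shown for its sterol element, Mvk and Nsdhl for their repeated boxes, and Soat1 because it holds a box and moved the other way.
Hmgcs1, chr13:119690166-119690315, plus strand, 185 to 36 bases before the start: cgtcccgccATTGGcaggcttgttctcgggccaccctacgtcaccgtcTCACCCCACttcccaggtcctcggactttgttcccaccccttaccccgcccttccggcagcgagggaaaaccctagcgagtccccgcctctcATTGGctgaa
Mvk, chr5:114444144-114444268, plus strand, 125 to 1 bases before the start: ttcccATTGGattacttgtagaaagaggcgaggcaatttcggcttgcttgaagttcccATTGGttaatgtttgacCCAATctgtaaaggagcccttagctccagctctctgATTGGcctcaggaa
Nsdhl, chrX:72918412-72918520, plus strand, 109 to 1 bases before the start: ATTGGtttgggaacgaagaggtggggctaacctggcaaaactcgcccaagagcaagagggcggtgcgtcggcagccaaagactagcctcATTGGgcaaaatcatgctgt
Soat1, chr1:156474332-156474388, minus strand, 60 to 4 bases before the start: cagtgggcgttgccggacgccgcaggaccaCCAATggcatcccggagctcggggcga

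Of the 21 members with a CCAAT box, 18 had a log2 fold change below 0 in SF against NC, and of the 6 with a window and no box 4 did, where 50.5% of all genes tested did. By adjusted p alone, 8 and 2 of these were lower and 2 and 1 higher, beside 13.2% and 15.9% of all genes. Idi1 and Cyp51 hold one within 50 bases of the start and fell, Sc5d and Soat1 hold one and were higher, and Ebp and Dhcr7 hold boxes with values near 0. Abca1 and Apoe, which moved in opposite directions, have none in their windows. No window was matched for Fdps, Fdft1, Sqle, Stard4, Abcg1, Scd1 and Scd2.

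**Figure D2:**
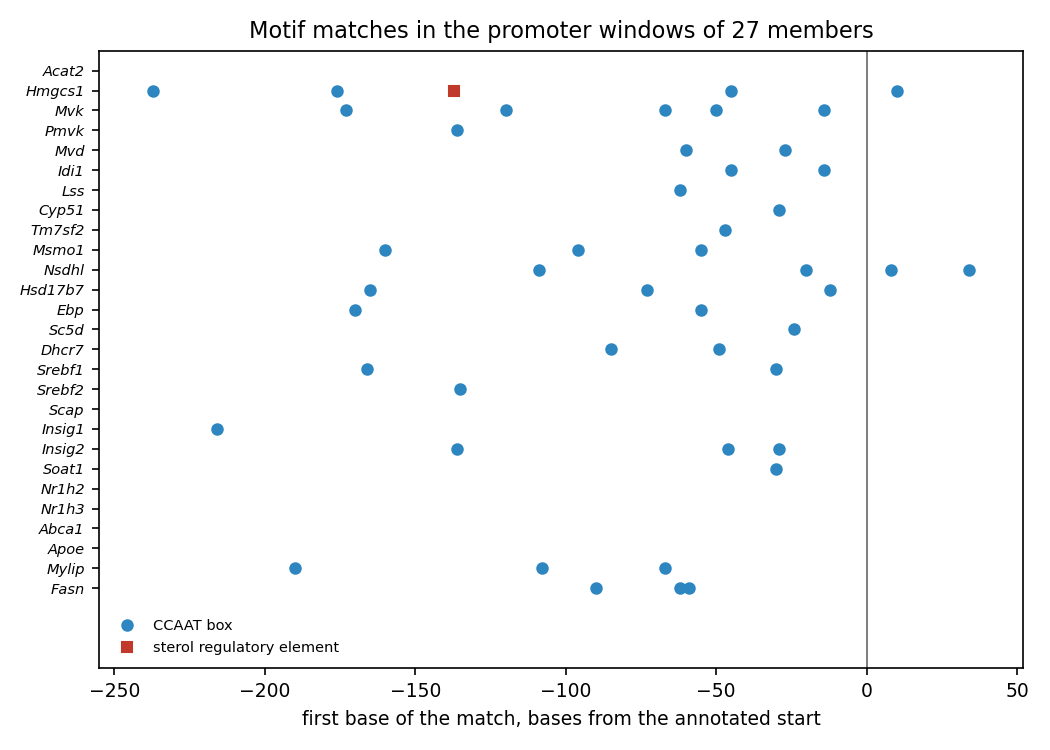
Position of each CCAAT box (circles) and sterol regulatory element (square) in the promoter windows of the 27 members with one, with the distance of the first base of the match from the annotated start in bases on the x axis and 1 row per gene. The only exact match to the sterol element is in Hmgcs1, 137 bases before its start. CCAAT boxes lie mostly on the near side of the windows, 28 of the 43 before the start within 100 bases of it.

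Among the regulators, the transcription factors were lower in SF without passing. Srebf2, whose protein mainly drives sterol synthesis, measured 9.43, 9.81 and 9.58 in NC, 9.36, 9.41 and 9.48 in MJ and 8.93, 8.84 and 9.25 in SF. Its SF libraries all lay under the NC libraries, and the difference of -0.60 ± 0.18 (SE) had an adjusted p of 0.0505. Srebf1, which mainly serves fatty acid synthesis, measured 8.49, 8.62 and 9.01 in NC, 8.43, 8.71 and 8.32 in MJ and 7.73, 8.16 and 8.24 in SF. Again SF did not overlap NC, with a difference of -0.67 ± 0.21 (SE, adjusted p = 0.0617). The 3′ end of Srebf1 lies in 109 exon bases shared with Rai1 on the opposite strand, so their reads cannot be told apart. Rai1 was at -0.13. Insig1, itself induced by SREBP, measured 8.60, 8.91 and 8.44 in NC, 8.28, 8.52 and 8.38 in MJ and 8.25, 7.50 and 7.33 in SF. The first SF library was close to the MJ libraries and the others well below them. It passed by adjusted p alone (-0.96 ± 0.28 SE, adjusted p = 0.0459), and this rested on the setting: in 8 of 17 alternatives the adjusted p was 0.05 or above, up to 0.235, and the change ranged from -0.65 without NC replicate 2 and SF replicate 3 to -1.24 without SF replicate 1, where it also passed by fold. Scap and Insig2, the escort protein and the second retention protein, were at -0.05 and -0.13, and their 95% intervals were -0.39 to 0.29 and -0.85 to 0.58.

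The transport and storage genes moved in opposite directions. Stard4, which carries sterol between membranes, measured 7.78, 7.53 and 8.01 in NC, 7.04, 7.23 and 7.87 in MJ and 6.86, 5.80 and 6.61 in SF. The SF libraries were below the rest, with replicate 2 the lowest. The difference was -1.35 ± 0.30 (SE, adjusted p = 0.0207), and without NC replicate 1 (-1.35) or NC replicate 3 (-1.23) it did not pass. Soat1, which esterifies cholesterol for storage, measured 10.09, 10.69 and 9.94 in NC, 10.46, 11.04 and 10.46 in MJ and 11.02, 11.50 and 11.25 in SF. SF lay above NC, and MJ overlapped both. The rise of 1.02 ± 0.25 (SE, adjusted p = 0.0255) sat on the fold limit and was lost under each of 3 other scalings (1 member higher instead of 2), and without SF replicate 2 (0.90), SF replicate 3 (1.02), NC replicate 1 (0.95) or NC replicate 3 (0.87).

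In the liver X receptor branch the targets did not move together. Abca1, which exports cholesterol to lipid-poor apolipoprotein, measured 6.32, 5.72 and 6.57 in NC, 6.32, 7.13 and 5.43 in MJ and 7.38, 7.79 and 7.98 in SF. Every SF library was above the other 6, and the MJ libraries were widely spread. The rise against NC was 1.51 ± 0.27 (SE, adjusted p = 0.0102), 2.86-fold. Abcg1, which exports cholesterol to mature lipoprotein, measured 9.86, 9.84 and 9.39 in NC, 8.92, 8.96 and 9.08 in MJ and 8.99, 9.27 and 9.22 in SF. Both treated groups lay below NC and overlapped each other, and the SF difference of -0.54 ± 0.19 (SE) had an adjusted p of 0.0727.

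Apoe, the secreted apolipoprotein that takes up exported cholesterol, had the largest fold change of the 34 between SF and NC. Its log2 values were 8.87, 7.58 and 7.67 in NC, 6.01, 5.57 and 6.82 in MJ and 6.22, 5.30 and 6.34 in SF. Both treated groups were below all NC libraries, among which replicate 1 was the highest. The SF level was 23.5% of the control (log2 fold change -2.09 ± 0.44 SE, adjusted p = 0.0169), and without SF replicate 2 it was -1.76 with an adjusted p of 0.0503. Mylip, the ligase that degrades lipoprotein receptors, fell by 0.83 on the log2 scale (adjusted p = 0.0148), under the fold limit, with an adjusted p of 0.0507 without NC replicate 1 and 0.0614 without NC replicate 2 and SF replicate 3. Nr1h3, which encodes one of the liver X receptors, measured 5.55, 5.57 and 6.01 in NC, 5.42, 5.34 and 5.22 in MJ and 5.29, 6.17 and 5.52 in SF. Its SF libraries overlapped NC (-0.05 ± 0.27 SE), and Nr1h2 was at 0.63 (adjusted p = 0.124).

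Of the 3 fatty acid genes 1 fell past the threshold. Scd2, a stearoyl-CoA desaturase, measured 11.89, 11.90 and 12.32 in NC, 11.51, 11.46 and 11.70 in MJ and 11.03, 10.30 and 10.99 in SF. The 3 groups were ordered without overlap, NC highest and SF lowest. The difference was -1.26 ± 0.25 (SE, adjusted p = 0.0141), 41.7% of the control. Its paralog Scd1, with which it may share reads (-0.86, adjusted p = 0.0637) and fatty acid synthase, Fasn (-0.72, adjusted p = 0.0652), lay below NC in all SF libraries without passing.

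**Figure D3:**
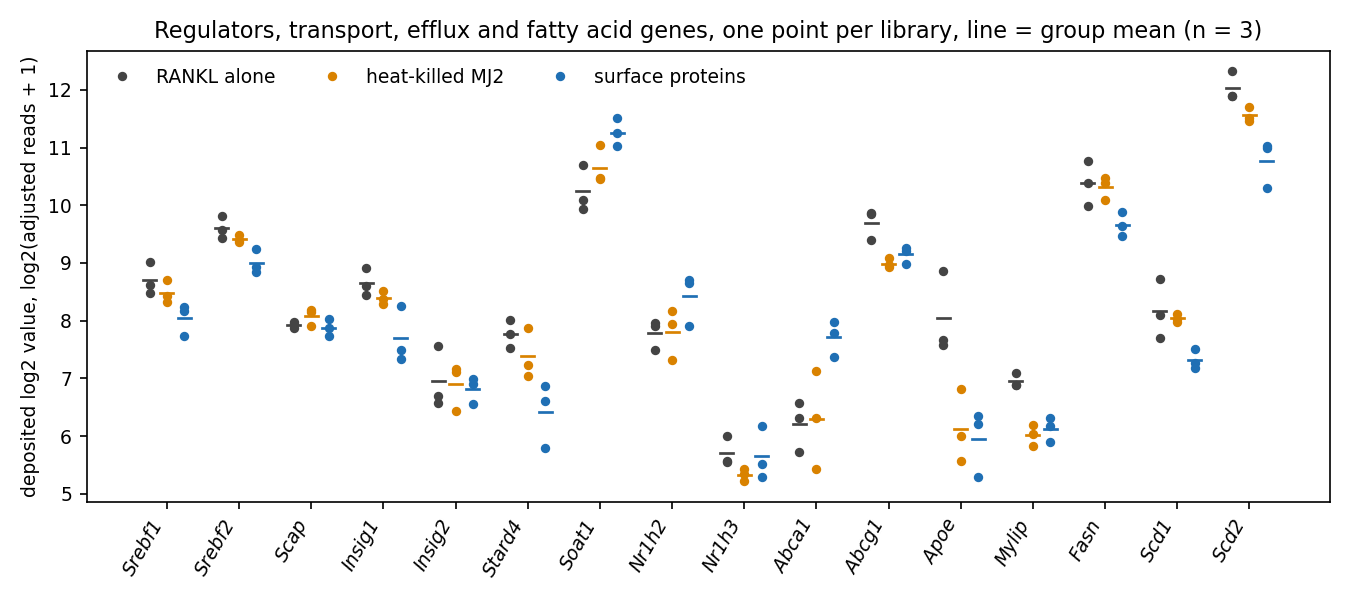
The deposited log2 value of the 16 members other than synthesis enzymes in each library (points), with group means as lines (n = 3). Levels are not comparable between genes. Abca1 and Soat1 are highest in SF, Stard4 and Scd2 lowest in SF, and Apoe, Abcg1 and Mylip are low in both treated groups.

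With heat-killed MJ2, 0 members passed both thresholds against NC in limma, where 3.37% of 10814 genes were called higher and 0.897% lower. At an unadjusted p under 0.05, 6 members differed, where 22.6% of all genes did, and 1 of them, Apoe, was lower by at least 2-fold, where 2.03% of all genes were. By adjusted p alone 1 member was lower, Mylip, where 1.84% of all genes were lower and 4.04% higher. The median log2 fold change was -0.15 over the 18 enzymes and -0.18 over the 34 members (all genes, 0.00). In 7 members every MJ library lay below every NC library (Mvd, Nsdhl, Nr1h3, Abcg1, Apoe, Mylip and Scd2), where 14.7% of all genes did. Dhcr7 alone lay above NC in every MJ library (0.33, adjusted p = 0.308), where 15.4% of all genes did.

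Mylip measured 7.10, 6.89 and 6.89 in NC, 6.03, 5.84 and 6.20 in MJ and 6.18, 5.90 and 6.32 in SF. The treated groups overlapped and both lay well under NC. The MJ difference was -0.94 ± 0.15 (SE, adjusted p = 0.0255), to 52.3% of the control. Leaving out any 1 library raised its adjusted p to between 0.0587 and 0.0933 (-1.03 to -0.84), and with the replicate number as a block it was 0.0746. Apoe in MJ was at 26.6% of the control (-1.91 ± 0.46 SE), but its adjusted p was 0.0690. Abcg1 (-0.71, adjusted p = 0.0712), Mvd (-0.70, adjusted p = 0.0580) and Nsdhl (-0.57, adjusted p = 0.105) were the next lowest with separated groups. For Idi1 and Sqle the MJ differences were -0.06 and -0.12, with 95% intervals of -0.42 to 0.29 and -0.45 to 0.21, which do not reach a 2-fold fall. Abca1 was at 0.09 with an interval of -1.01 to 1.19.

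**Figure D4:**
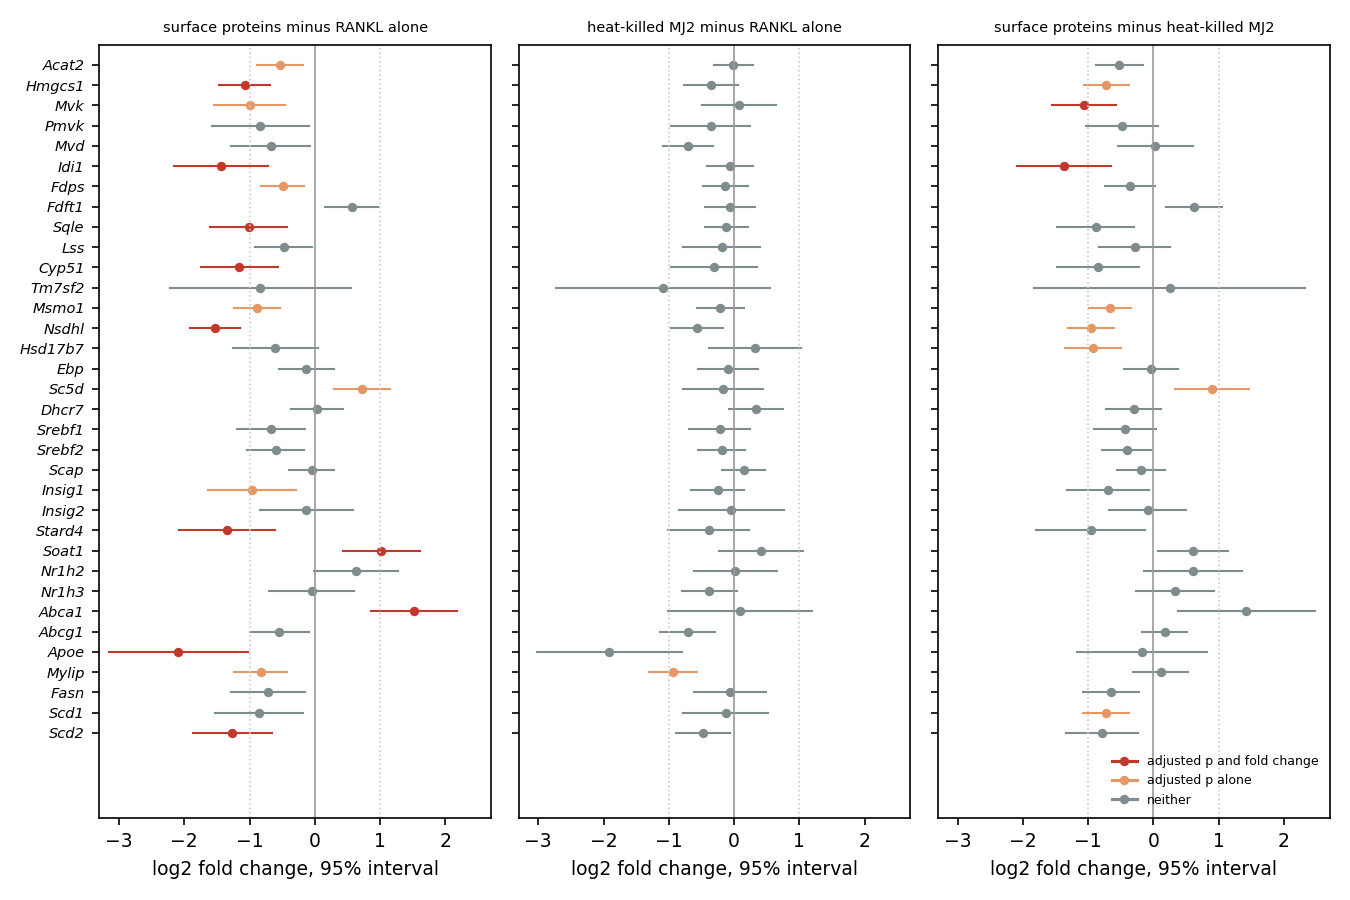
Log2 fold changes of the 34 members with 95% intervals from limma, for SF minus NC, MJ minus NC and SF minus MJ (3 libraries per group). Red marks members past adjusted p and 2-fold, orange those past adjusted p alone, grey neither, and dotted lines are 2-fold. The red members number 10, 0 and 2 in the 3 panels.

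SF and MJ were then compared directly, since differences in each against the shared controls are not independent. Mvk and Idi1 were lower in SF, and no member was higher, where 4.97% of 10916 genes were called lower and 5.08% higher. Mvk differed by -1.07 ± 0.20 (SE, adjusted p = 0.0215) and Idi1 by -1.37 ± 0.30 (SE, adjusted p = 0.0294), so that SF held 47.7% and 38.7% of the MJ level. Both calls were lost without SF replicate 3 (Mvk -0.96, Idi1 -1.48), MJ replicate 1 (-1.16 and -1.34) or MJ replicate 3 (-0.91 and -1.32), and that of Idi1 also without MJ replicate 2 (-1.46). Without SF replicate 1 or MJ replicate 2 the count of lower members was 4, and without MJ replicate 2 Abca1 passed as higher (1.84).

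By adjusted p alone 7 members were lower in SF than in MJ (Hmgcs1, Mvk, Idi1, Msmo1, Nsdhl, Hsd17b7 and Scd1) and 1 higher (Sc5d), where 8.65% and 9.21% of all genes were. Of these 8, 7 are synthesis enzymes (Sc5d, the higher one, among them), as are 18 of the 34 members. Nsdhl differed by -0.96 ± 0.14 (SE, adjusted p = 0.0134), Hsd17b7 by -0.93 and Hmgcs1 by -0.72. The medians were -0.50 over the enzymes, -0.38 over the 34 members and 0.03 over all genes. Abca1 was higher in SF by 1.42 ± 0.43 (SE, adjusted p = 0.0685).

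Of the members, 6 lay below the shared NC libraries without overlap in both treated groups, where 8.55% of the 10649 genes tested in both comparisons did, and their SF and MJ levels were compared in the same way. Nsdhl was lower in SF, as given above, and Scd2 was at -0.79 (adjusted p = 0.0618) with every SF library below every MJ library. Apoe differed between SF and MJ by -0.18 (95% interval -1.17 to 0.81), which does not exclude a 2-fold difference. For Mylip (0.11, interval -0.32 to 0.53), Abcg1 (0.17, interval -0.17 to 0.51) and Mvd (0.03, interval -0.55 to 0.61) the intervals stayed inside 2-fold.

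Genes of the same pathway outside the list were counted from lists of known function, and each count stands against the 10.2% of all genes called higher and 7.32% called lower in SF against NC, 3.37% and 0.897% in MJ against NC, and 5.08% and 4.97% in SF against MJ. In uptake, lysosomal release and transport, 12 of 13 genes were tested, and 6 rose and none fell past both thresholds in SF against NC, with a median of 0.91. By adjusted p alone Scarb1, a lipoprotein receptor, was lower (-0.71, adjusted p = 0.0165) and Gramd1a higher (0.78, adjusted p = 0.0106). Cd36, the scavenger receptor for oxidized lipoprotein, rose by 3.56 ± 0.26 (SE, adjusted p = 0.000639) on the log2 scale. It measured 6.75, 7.54 and 6.94 in NC, 10.01, 9.89 and 9.71 in MJ and 10.46, 10.96 and 10.48 in SF. Osbpl2 and Gramd1b, which carry or bind sterol at membrane contacts, rose by 2.26 and 1.96, and the call of Gramd1b was lost without SF replicate 2 (1.62), SF replicate 3 (2.05), NC replicate 1 (1.44) or NC replicate 2 (2.16). In MJ, 2 genes of this list rose, Cd36 (2.79, adjusted p = 0.00251) and Msr1, another scavenger receptor (1.55, adjusted p = 0.00256), and none fell. Against MJ, SF was higher in Osbpl2 (1.74) and Stard5 (1.44), the latter not without MJ replicate 1 (adjusted p = 0.0588).

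Partners and targets of the liver X receptors were divided. Of 10 tested of 12, 2 rose in SF against NC (Nceh1, a cholesterol ester hydrolase, by 2.05, and Rxra, the receptor partner, by 1.49) and 2 fell (Apoc2, an apolipoprotein, log2 fold change -2.74, and Lpl, lipoprotein lipase, -1.78). Apoc2 passed the filter through NC alone, at 22.8 to 36.8 adjusted reads against 1.93 to 7.65 in SF, and its difference was -2.91 with 0.5 and -2.09 with 4 in place of the constant of 1 added before the log. Lpl measured 12.59, 12.62 and 13.36 in NC, 12.60, 12.24 and 12.57 in MJ and 11.39, 10.50 and 11.33 in SF. Its SF libraries lay below all others, and the level differed from MJ by -1.40 (adjusted p = 0.0229), a call lost without SF replicate 3, MJ replicate 1 or MJ replicate 3 (-1.55 to -1.11 over the libraries left out). Nceh1 was higher than in MJ by 1.24 (adjusted p = 0.0483), a call kept in only 1 of the 6 fits with a library left out, that without MJ replicate 2 (range 0.97 to 1.57). Rxrb was lower in SF than in NC by adjusted p alone (-0.58, adjusted p = 0.0363). None of the list passed in MJ against NC, by both thresholds or by adjusted p alone.

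Fatty acid synthesis genes outside the list, 12 tested of 13, included 3 that fell in SF and none that rose, with a median of -0.60. They were the desaturase Fads2 (-2.17, adjusted p = 0.0488), the elongase Elovl6 (-1.49, adjusted p = 0.0274) and Lpin1, a phosphatidate phosphatase (-1.48, adjusted p = 0.0138). Fads2 measured 4.29, 3.85 and 1.74 in SF, and without the third of these libraries its difference was -1.39 (adjusted p = 0.0163). The calls of Fads2 and Elovl6 were both lost without SF replicate 2 or any 1 NC library, with adjusted p up to 0.119 and 0.0721. Lpin1 was also lower than in MJ (-1.09), which held in 1 of 6 fits with a library left out, that without SF replicate 3. By adjusted p alone Acly (-0.71, adjusted p = 0.0310) and Fads1 (-0.74, adjusted p = 0.0184) were also lower in SF than in NC. None passed in MJ against NC by either criterion.

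In other sterol and isoprenoid synthesis genes, all 10 tested, 2 rose in SF and none fell past both thresholds, and by adjusted p alone Lbr (-0.97, adjusted p = 0.00825) and Fntb, a prenyl transferase subunit (-0.67, adjusted p = 0.0187), were lower. Por, the reductase that feeds electrons to Cyp51 and Sqle, rose by 1.49 ± 0.21 (SE, adjusted p = 0.00460) while both of those enzymes fell, and Pggt1b, also a prenyl transferase subunit, rose by 1.23. Lbr, a sterol reductase of the nuclear envelope, was lower in SF than in MJ by 1.07 (log2 difference -1.07, adjusted p = 0.0202), which was lost without SF replicate 2, SF replicate 3, MJ replicate 1 or MJ replicate 3 (-1.21 to -0.90). Of the 10 genes for SREBP cleavage and degradation 1 rose in SF, a share like that of all genes. It was Erlin1, which takes part in degradation at the endoplasmic reticulum (1.75, adjusted p = 0.00497), and it was also higher than in MJ (1.43). None of either list passed both thresholds in MJ against NC, and by adjusted p alone Ube2g2, a ubiquitin conjugating enzyme, was lower (-0.62, adjusted p = 0.0446). Over the 5 lists, the genes past adjusted p alone between SF and MJ and under the fold limit were Cyb5r3 (-0.57) and Acly (-0.79), lower in SF, and Cd36 (0.76), Lipa (0.82) and Cyp27a1 (0.94), higher in SF.

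**Figure D5:**
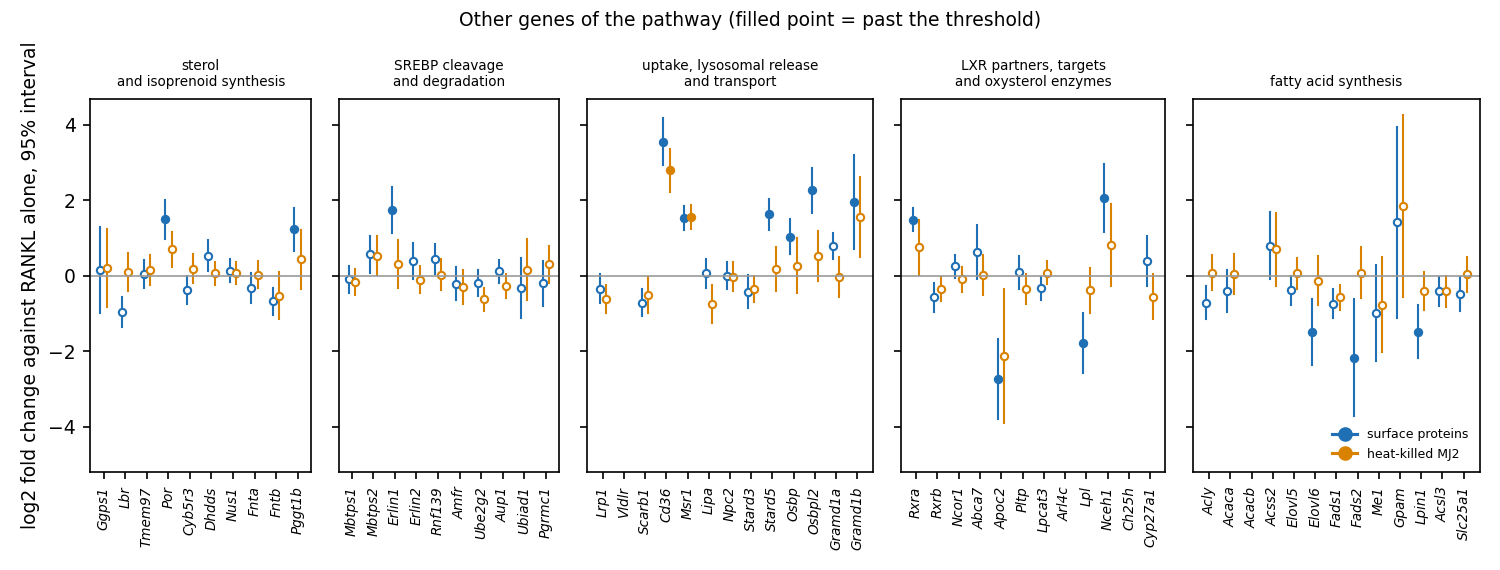
Log2 fold changes against RANKL alone with 95% intervals for pathway genes outside the 34, in 5 lists, for SF (blue) and MJ (orange), with filled points past adjusted p and 2-fold (3 libraries per group, genes without a point not tested). Filled points above 0 gather in the uptake and transport list, where Cd36 and Msr1 are filled in both treatments, and the fatty acid list has filled points below 0 only.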

How the data were processed

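QuantSeq 3′ mRNA libraries of RAW264.7 cells were sequenced as 75 bp single-end reads. The labels' processing notes name Bowtie2, bedtools and mm10, and the methods name quantile normalization. Annotation, strand and shared-read settings were not given in the sources used here. The deposited files hold log2(value + 1) of reads that the authors adjusted between libraries, and sorted columns differed by up to 1.601, so they were not strictly quantile normalized. Values were used as deposited.

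Each comparison of 2 groups was fitted with limma 3.58.1 (R 4.3.3) on its own 6 libraries, keeping genes that reached 10 adjusted reads in 3 or more, with Benjamini-Hochberg adjustment over all genes tested. The threshold was adjusted p under 0.05 with a 2-fold change. Scripts were tested on simulated data. Named were all members. Values per library are given for members past the threshold and for Srebf1, Srebf2, Insig1, Nr1h3, Abca1, Abcg1 and Mylip. Of the other pathway genes, at most the 3 largest changes per list and comparison were named. Rxra, Osbp and the genes past adjusted p alone were added after their values were seen. The 17 members with values per library, Mylip among them, were recomputed under each alternative, and the others only within counts. Members and lists were chosen with earlier results of these data known. Alternatives covered scaling, filter, pseudocount, samples fitted, replicate block, variance model, threshold and left-out libraries. No library duplicated another (0 identical pairs).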

Additional observations from a re-analysis of the deposited data

How the results depend on the processing

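Directions of the 10 members called in SF against NC and the 2 called in SF against MJ were the same in all 19 alternatives run for each. Most of this was fixed in advance. The groups of these members did not overlap, so leaving out libraries could not turn a direction. Settings that altered only the filter, the libraries fitted together, the block, the variance model or the threshold keep the fold change. The values counted next include the same settings. Of 969 values under alternatives, for 17 members in 3 comparisons, 885 kept their side of the threshold and direction, 41 lost a call, 31 gained one and 12 changed sign with no call on either side. These were, with the range over single libraries left out, Abca1 (-0.33 to 0.52), Mvk (-0.12 to 0.22) and Idi1 (-0.13 to 0.021) in MJ against NC, Nr1h3 (-0.30 to 0.14) in SF against NC and Apoe (-0.46 to 0.16) in SF against MJ. Without NC replicate 2 and MJ replicate 1, Mvk was at -0.025 and Abca1 at -0.16 in MJ against NC. In SF against NC, members higher numbered 1 instead of 2 under quantile normalization, equal totals, equal medians or no filter, and 1 without the 3 libraries NC replicate 2, MJ replicate 1 and SF replicate 3 (chosen after seeing the data). Members lower numbered 14 with no limit on the fold and 4 without those 3 libraries. With single libraries left out, members higher ranged from 1 to 2 and lower from 3 to 10. In MJ against NC, members lower numbered 1 instead of 0 under quantile normalization, a filter of 30 reads, 1 fit of all 9 libraries, limma with trend and robust, no fold limit, or unadjusted p. In SF against MJ, members lower numbered 4 under equal totals, 1 with no filter, 7 with no fold limit and 0 without the 3 libraries, and members higher 1 with a filter of 30 reads, all 9 libraries, trend and robust, no fold limit, or unadjusted p. With single libraries left out, the latter ranged from 0 to 1 and members lower from 0 to 4. The causes were not tested.

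Replicate numbers are shared between groups without a stated pairing. Deviations of same-numbered libraries correlated at 0.0804, 0.0639 and 0.0258 in SF and NC, where every library correlated best with its own number, and at 0.0338, 0.128 and 0.0480 in MJ and NC, where not every one did, and at 0.0889, 0.127 and 0.0593 in SF and MJ, where every one did. With the replicate number as a block, SF against NC gave 2 higher and 7 lower, without Sqle (adjusted p = 0.0545). MJ against NC gave 0 and 0. SF against MJ gave 0 higher and 1 lower, which was Idi1, while Mvk had an adjusted p of 0.0576. Settings that moved all genes shifted their median by at most -0.08 (equal totals, SF against MJ) and by -0.06 at most in SF against NC. Of the other pathway genes called, 12 of 16 kept the call in SF against NC with any 1 library left out (chosen after seeing the data), 2 of 2 in MJ against NC and 2 of 7 in SF against MJ; Osbp (1.04) lost it without SF replicate 3 (0.92) or NC replicate 1 (0.90). Without the 3 libraries together, 11 of the 16 kept it (not Pggt1b, Osbp, Gramd1b, Apoc2 and Lpl), 1 of 2 in MJ against NC (not Msr1, adjusted p = 0.0743) and 0 of 7 in SF against MJ, each keeping its direction. With 3 libraries per group, changes under 2-fold in members of wide spread were not resolved. For Tm7sf2 a larger one was not either (-1.09 in MJ against NC, limma adjusted p = 0.398).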
